A study of Mus musculus with 12 samples.

Results

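Genes that are widely used to mark astrocytes were followed across microglia preparations sorted from mouse brain: Gfap, Aqp4, Slc1a2, Slc1a3, Aldh1l1, Gja1, S100b, Aldoc, Glul and Sox9. They were chosen by name, as 10 of the 23575 named genes on the arrays, and every probe assigned to them was used. Each array carried Cy3-labelled RNA from a preparation enriched for the fractalkine receptor CX3CR1 with a magnetic sorting (MACS) kit, from male mice aged 8 weeks. The 6 groups of 2 arrays each came from wild type mice, mice with ZEB1 overexpression and mice with ZEB1 knock-down, each sampled before tMCAO and after it. This procedure, transient occlusion of the middle cerebral artery, is a stroke model in which a brain artery is blocked and then reopened. ZEB1 is a zinc-finger transcription factor that binds E-box sequences. The labels give neither the promoter of the transgene, the cells in which ZEB1 was knocked down nor the interval after tMCAO, and they do not say whether the replicates came from separate animals, so the p-values measure only the spread between these arrays, which may be technical.

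Astrocytes are the glia that take up glutamate and potassium, supply neurons with metabolic substrates and contact blood vessels with their endfeet. After injury they become reactive, with a rise of the intermediate filament protein GFAP as the classical sign and with loss of some of their resting functions. Microglia are macrophages of another lineage, and the genes studied here are not among their defining markers.

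Both groups with injured wild type or ZEB1 overexpression mice were on a slide of 4 arrays, and the other 4 groups shared an 8-array slide of another design, so groups were tested only within a slide. Levels are log2 signals relative to the 75th percentile of the same array. That percentile was 1078 to 1515 intensity units in the first design and 2566 to 3702 in the second. Of the spots on an array, 60.4% to 73.9% were well above background. Zeb1 itself differed from wild type by 0.26 ± 0.23 (SE, log2, n = 2 against 2) in the arrays labelled ZEB1 overexpression before tMCAO and by 0.13 ± 0.23 in those labelled ZEB1 knock-down, with limma adjusted p = 0.771 and adjusted p = 0.984, so the targeted gene did not show the labelled change and groups are named as labelled. The sources used here do not say where the Zeb1 probes lie relative to the altered sequence. All 14 microglia markers examined, among them Cx3cr1, Tmem119 and P2ry12, were well above background on every array. So were all 12 neuronal markers, all 12 oligodendrocyte lineage markers and a list of 34 further astrocyte genes, so RNA of other brain cell types was measurable in every preparation. Linear levels, in units of each array's 75th percentile, were summed over each list. Before tMCAO the microglia sums were 49.3 to 50.9 in wild type, 44.1 to 45.2 in overexpression and 45.5 to 47.0 in knock-down. In the same order the 10 astrocyte genes summed to 65.8 to 71.2, 69.8 to 76.8 and 59.4 to 61.0. The neuronal sums were 94.3 to 98.6, 95.7 to 97.9 and 92.5 to 94.5. The lists differ in genes and probes, so the sums give no share of cells. In such bulk samples more cells of a type and more RNA per cell cannot be told apart.

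The 10 genes had 15 probes on the 4-array slide and 20 on the 8-array slide, of which 8 were on both designs. Well above background on every array were 15 of 15 and 18 of 20 probes, at least 1 for each gene on each slide, so none of the 10 genes was at background in any preparation. The brightest probe stands for the gene unless another is named. The scanner software had marked 37.1% of the member spots on the 4-array slide and 37.2% on the 8-array slide as non-uniform or outlying. Tests therefore used values with marked spots left out, and levels and a further fit are given with all spots kept.

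The promoter windows, the 250 bases before each start site in RefSeq (mouse GRCm38.p6), were found for 8 of the 10 genes, in 9 windows. The E-box CAGGTG, a known ZEB1 recognition sequence, occurred on neither strand in any of the 9 windows, against 17.2% of 32851 promoter windows of the same length. The letters TTCNNNGAA, which STAT factors recognise, were in 2 of the 9, those of Slc1a3 and a second Aldoc start, against 7.02% of all windows. The letters TGANTCA, which AP-1 recognises, were in the Gja1 window alone, against 6.75% of all windows. The windows of Gfap, the gene that changed most, and of the glutamate transporter gene Slc1a3 are shown because signalling through STAT3 is a known activator of Gfap in reactive astrocytes. Capitals mark a match to TTCNNNGAA, and the Gfap window holds none. Bases farther than 250 from the start were not searched, so the absence holds for this window only.
Gfap, chr11:102897201-102897450, minus strand: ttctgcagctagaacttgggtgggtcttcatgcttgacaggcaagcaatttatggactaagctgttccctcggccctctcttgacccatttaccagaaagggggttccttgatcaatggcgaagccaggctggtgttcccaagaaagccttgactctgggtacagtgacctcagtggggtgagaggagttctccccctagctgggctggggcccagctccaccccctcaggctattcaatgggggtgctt
Slc1a3, chr15:8710808-8711057, minus strand: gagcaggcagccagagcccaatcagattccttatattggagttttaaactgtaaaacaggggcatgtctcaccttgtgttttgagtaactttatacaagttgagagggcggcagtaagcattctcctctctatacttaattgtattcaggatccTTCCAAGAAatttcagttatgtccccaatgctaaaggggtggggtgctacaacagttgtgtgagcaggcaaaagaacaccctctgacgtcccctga

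The first comparison asked how these genes differed in ZEB1 knock-down preparations after tMCAO from those before it. Gfap rose 4.30-fold, and it was the only one of the 8 members measured in both groups to pass the test. The water channel gene Aqp4 was nearest behind it at 1.92-fold without passing, while the glutamate transporter gene Slc1a2 lay lower. Among the markers of astrocyte identity and metabolism, Sox9, Glul and Aldoc had log2 differences of 0.01 to 0.10. Aldh1l1 and, with all spots kept, S100b lay higher after tMCAO without overlap and without passing. Among all 24608 genes tested, 18.1% changed, 11.1% upward and 7.03% downward, so the share of members called, 1 of 8, is near the background. With all spots kept 1 of 10 members passed, against 16.6% of 30525 genes (10.1% upward and 6.47% downward).

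**Figure D1:**
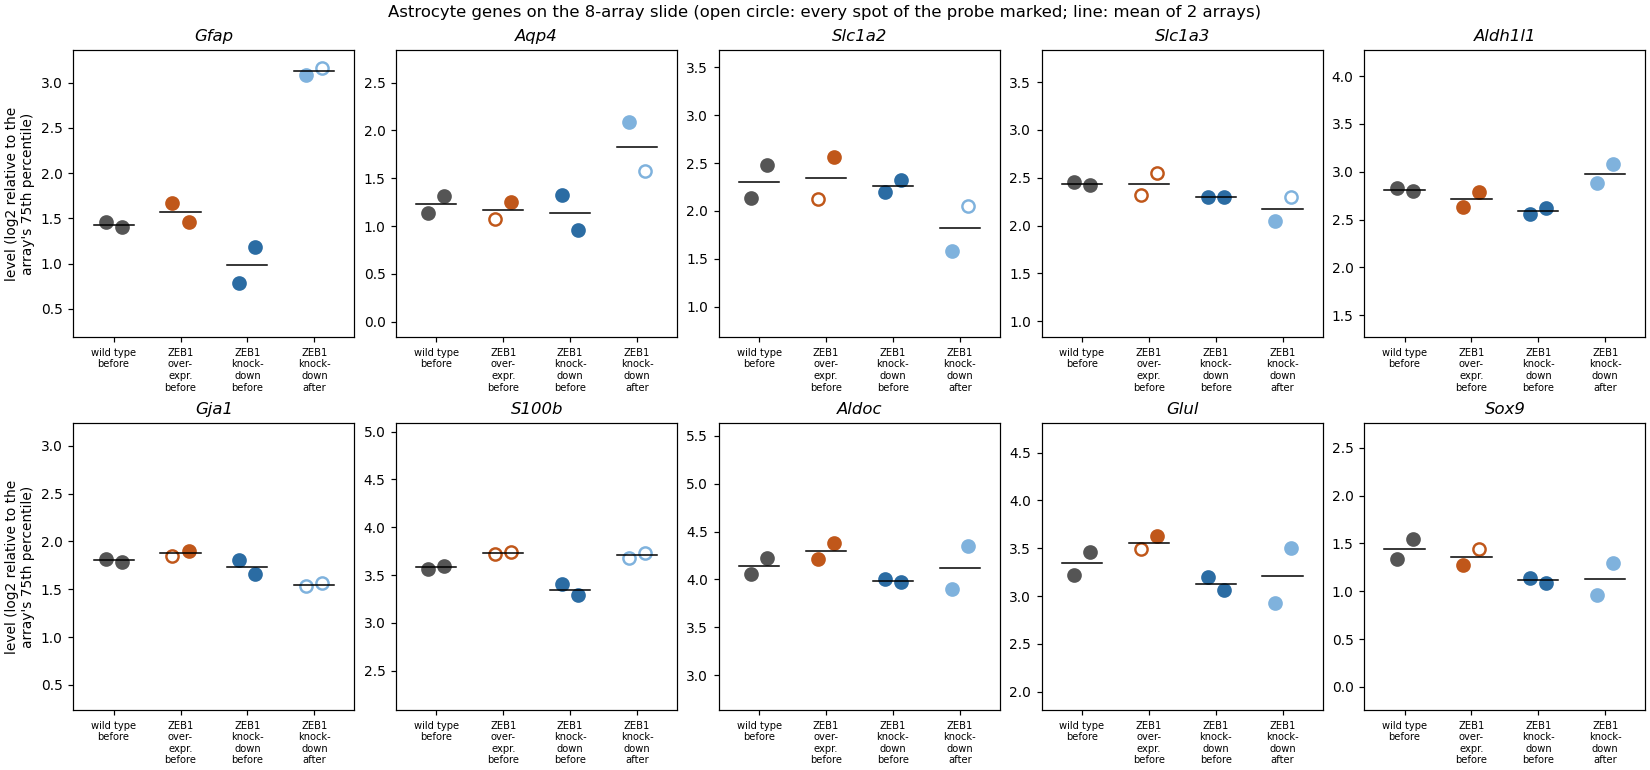
Levels of the 10 astrocyte genes on the 8-array slide, by array (vertical axis, log2 over the 75th percentile of its array) and group (horizontal axis); open circles are arrays on which every spot of the probe was marked, and lines are means of 2 arrays. Gfap lies between 3.09 and 3.16 in knock-down arrays after tMCAO and between 0.79 and 1.68 in the other arrays, while no other member stands as far from the rest in that group.

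Gfap encodes the intermediate filament protein of the astrocyte cytoskeleton. Its brightest probe, A_52_P52303, lay at 0.79 and 1.18 before tMCAO and at 3.09 and 3.16 after it in the knock-down arrays. The groups were well apart, and the arrays after tMCAO also lay above those of uninjured wild type mice, at 1.46 and 1.40, and of uninjured overexpression mice, at 1.68 and 1.46. The log2 difference after against before was 2.10 ± 0.23 (SE, 1 array against 2, since the spot of replicate 2 after tMCAO was marked; the fit then takes the spread from the other arrays of the slide and assumes that the lone array varies like them), a 4.30-fold rise with a 95% interval of 2.87-fold to 6.44-fold (limma adjusted p = 0.0083). With all spots kept it was 2.14 ± 0.18 (n = 2 against 2, adjusted p = 0.0031). Higher levels were seen on 2 of 2 arrays.

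A second Gfap probe, A_55_P2157250, gave a larger difference. It lay at -0.77 and -0.89 before tMCAO and at 2.44 and 2.63 after it, a log2 difference of 3.36 ± 0.16 with all spots kept and every probe tested on its own (limma adjusted p = 0.0016). With marked spots left out the difference was 3.27 (adjusted p = 0.0048). Both probes thus moved the same way but by unequal amounts, and the sources used here do not say which transcripts each one detects. The Gfap call held in 12 of 12 other ways of processing the values, with log2 differences from 1.72 to 2.37. Without replicate 1 after tMCAO and with marked spots left out Gfap has no value, because its remaining spot was marked, so no member was then called.

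The genes of endfeet and cell contacts did not move with Gfap in a common way. Aqp4 encodes the water channel of the endfeet at blood vessels. It lay at 1.32 and 0.96 before tMCAO and at 2.08 and 1.58 after it, so the groups did not overlap. The log2 difference was 0.94 ± 0.24 (1 array against 2, limma adjusted p = 0.0676) and 0.69 ± 0.23 with all spots kept (adjusted p = 0.0858). A second Aqp4 probe gave 0.68 ± 0.19 (adjusted p = 0.0585), and 2 further Aqp4 probes were not well above background on any array. Aqp4 passed the test under 3 other settings, with adjusted p = 0.0115 after normexp background correction, adjusted p = 0.0386 where only probes above background on every array entered, and adjusted p = 0.0106 with trended, robust moderation, against a range of 0.0106 to 0.208 over the 12 settings tried. Gja1 encodes connexin 43, the main gap junction protein of astrocytes. Its levels were 1.80 and 1.66 before tMCAO and 1.53 and 1.56 after it, without overlap, and the log2 difference with all spots kept was -0.18 ± 0.14 (adjusted p = 0.383). Both arrays after tMCAO had every Gja1 spot of this probe marked, so no value remains without them. Of 2 much dimmer Gja1 probes, 1 gave 0.69 ± 0.41 (adjusted p = 0.277) and the other -0.84 ± 0.23 (adjusted p = 0.0529), with all spots kept and every probe tested on its own. With marked spots left out the latter passed (-0.84 ± 0.22, adjusted p = 0.0476) and the former was at 0.11 ± 0.33, so the 3 probes gave no common result for Gja1.

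None of the genes of glutamate handling passed. Slc1a2 encodes GLT-1, the main glutamate transporter of forebrain astrocytes. It lay at 2.20 and 2.32 before tMCAO and at 1.58 and 2.06 after it, so the groups did not overlap, but replicates after tMCAO differed by more than the gap between groups. The log2 difference was -0.68 ± 0.23 (1 array against 2, limma adjusted p = 0.115), and with all spots kept -0.44 ± 0.25 (adjusted p = 0.252). It passed after normexp background correction (adjusted p = 0.0477) and with trended, robust moderation (adjusted p = 0.0237), out of 12 settings whose adjusted p ran up to 0.255. Slc1a3 encodes GLAST, the other astrocytic glutamate transporter. It lay at 2.30 on both arrays before tMCAO and at 2.05 and 2.30 after it, a log2 difference of -0.25 ± 0.17 (1 array against 2, adjusted p = 0.342). Glul, which encodes glutamine synthetase, lay at 3.20 and 3.06 before and at 2.93 and 3.50 after, and its groups overlapped (0.09 ± 0.23, adjusted p = 0.813).

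The remaining members mark astrocyte metabolism and identity. Aldh1l1, an enzyme of folate metabolism used as a general astrocyte marker, lay at 2.56 and 2.62 before tMCAO and at 2.88 and 3.08 after it. Its groups did not overlap, and the log2 difference was 0.39 ± 0.14 (n = 2 against 2, limma adjusted p = 0.0909), past the threshold after normexp background correction (adjusted p = 0.0369) and with trended, robust moderation (adjusted p = 0.0231). S100b, a calcium-binding protein that oligodendrocyte lineage cells also make, lay at 3.40 and 3.29 before and at 3.68 and 3.73 after. The groups did not overlap, but every spot was marked on both arrays after tMCAO, and with those spots kept the difference was 0.36 ± 0.14 (adjusted p = 0.116). Aldoc, the brain form of the glycolytic enzyme aldolase, averaged 3.99 before, with an SD of 0.02, and lay at 3.90 and 4.34 after, so the groups overlap (0.10 ± 0.21, adjusted p = 0.752). Sox9, a transcription factor of the astrocyte lineage, lay at 1.14 and 1.09 before and at 0.96 and 1.29 after, which also overlap (0.01 ± 0.17, adjusted p = 0.971).

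Over the 10 members with all spots kept, the groups did not overlap for 4 with higher and 2 with lower levels after tMCAO, against 62% of all genes without overlap in either direction (33.6% higher and 28.4% lower). The median difference of the members was 0.09 with marked spots left out, beside 0.05 over all genes tested. The 8-array slide held the knock-down arrays after tMCAO in row 1, columns 1 and 2, with 20.8% and 23.5% of their spots marked, and those before tMCAO in row 2, columns 3 and 4, with 1.87% and 1.03% marked, so position on the slide and share of marked spots cannot be told apart from tMCAO here. Scaling the arrays by their medians shifted the median of all genes from 0.05 to -0.23 and turned the share of higher calls from 61.2% to 39.4%. Under that scaling Gfap was still 1.72 higher (adjusted p = 0.0130), Aqp4 was at 0.56, Slc1a2 at -1.06 and Aldoc, Glul and Sox9 turned negative.

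**Figure D2:**
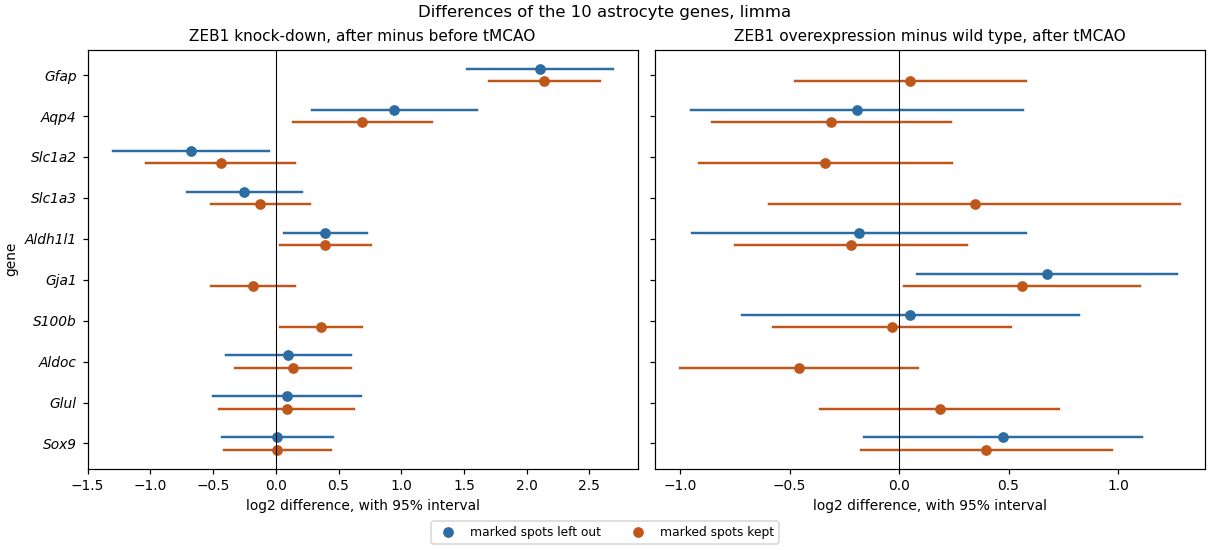
Log2 differences of the 10 astrocyte genes with 95% intervals from limma (horizontal axis) by gene (vertical axis), for ZEB1 knock-down after minus before tMCAO on the left and for ZEB1 overexpression minus wild type after tMCAO on the right, with marked spots left out or kept; a gene without a blue point had no unmarked spot in a group. Gfap on the left is at 2.10 and 2.14, and on the right the largest difference is that of Gja1 at 0.68 and 0.56.

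Other genes known from astrocytes were read beside the members. Of the 34 further astrocyte genes, which include transporters, channels and lineage factors, 18 had values in both groups, of which 1 rose, 1 fell and 16 did not pass. Their median was -0.12, beside 0.05 over all genes. Gpr37l1, a receptor of astrocytes, rose by 0.74 ± 0.19 on the log2 scale (limma adjusted p = 0.0464), and Slc6a11, a GABA transporter, fell by 0.55 (-0.55 ± 0.13, adjusted p = 0.0471). In the fits without 1 array this rise and this fall never held together. Neither held without either knock-down array before tMCAO. The same was seen without either overexpression array, although that group is not part of this comparison. At an unadjusted p under 0.05, 4 of the 18 passed. Of all genes 18.1% passed even the stricter adjusted test, so this count is not read as a result. With all spots kept 34 were measured, and Fabp7, a fatty acid-binding protein of radial glia and astrocytes, rose by 1.61 ± 0.17 (adjusted p = 0.0050).

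Genes described as induced in reactive astrocytes showed larger differences than the resting markers. Of the 12 pan-reactive genes, 8 had values in both groups and 8 of 8 rose, with a median log2 difference of 2.67. Timp1, an inhibitor of metalloproteinases, rose by 4.78 ± 0.27, Lcn2, a secreted iron-siderophore carrier, by 2.99 ± 0.45, and Osmr, the oncostatin M receptor subunit, by 2.84 ± 0.21 (1 array against 2), with limma adjusted p from 0.0021 to 0.0123. Aspg rose by 2.72 ± 0.14 (adjusted p = 0.0021). With all spots kept 10 of 11 rose, among them the serine protease inhibitor gene Serpina3n by 4.40 ± 0.22 (adjusted p = 0.0018), while Steap4 did not pass the filter on dim probes. The count was 5 of 8 without knock-down replicate 2 before tMCAO and 6 of 8 without replicate 1.

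Of the genes named A1 after their induction in a neuroinflammatory setting, 4 of 8 measured rose, with complement C3 at 2.52 ± 0.31 (limma adjusted p = 0.0075) and the complement inhibitor gene Serping1 at 1.76 ± 0.19 (adjusted p = 0.0059). Ggta1 rose by 1.95 ± 0.35 and H2-D1, a class I histocompatibility gene, by 1.32 ± 0.18, each from 1 array against 2. Of the genes named A2 after their induction by ischaemia, 7 of 10 rose. Tgm1, a transglutaminase, rose by 8.71 ± 0.48, Ptx3, a secreted pentraxin, by 3.89 ± 0.24, Cd109 by 3.23 ± 0.36 and Cd14, a co-receptor for lipopolysaccharide, by 2.12 ± 0.19, with adjusted p from 0.0021 to 0.0061. Only 7 of the 12 A2 genes were well above background on every array of the slide. Tgm1 averaged -6.38 in knock-down before tMCAO, where the lowest levels well above background were -7.09 and -6.24 on the 2 arrays. The size of its rise thus rests on a signal near background. Without knock-down replicate 2 before tMCAO the counts were 1 of 8 for A1 and 5 of 10 for A2, and without replicate 1 after tMCAO 2 of 4 A1 genes rose.

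Many of these reactive genes, C3, Cd14, Lcn2 and H2-D1 among them, are also made by myeloid cells. Beside them, 5 of 9 measured microglia markers rose, among them Olfml3 by 1.94 ± 0.36, Trem2 by 1.49 ± 0.20 and Cx3cr1 itself by 1.41 ± 0.33 (limma adjusted p = 0.0361). Siglech, another microglia marker, was at -1.60 ± 0.45 without passing (1 array against 2, adjusted p = 0.0811). Of the 10 monocyte and border macrophage markers 8 were measured and 6 rose, with a median of 2.57 and with Ms4a7 at 3.27 ± 0.46 (adjusted p = 0.0103), Chil3 at 3.23 ± 0.83, the chemokine receptor gene Ccr2 at 3.23 ± 0.85 and Pf4 at 2.14 ± 0.26. Without either knock-down array before tMCAO 0 of those 8 and 1 of the 9 microglia markers passed, without replicate 1 after tMCAO 2 of 5 in each list did, and without either wild type array 3 did in each. Of the other lists, 3 of 9 endothelial and mural markers rose, and of 5 ependymal and choroid plexus markers 1 rose and 1 fell. Of 3 erythroid genes 2 had a lower signal past the threshold with limma. The erythroid gene Slc4a1 was above background on 0 of 2 arrays after tMCAO and Alas2 on 1 of 2, against 2 of 2 before it. Their tests were thus against signal at or near background, and no size is given for a fall. Of the neutrophil markers 0 of 4 passed with limma, also at an unadjusted p under 0.05. Without 1 array the endothelial, ependymal and erythroid counts also moved. Without either wild type or either knock-down array before tMCAO 1 of 9 endothelial and mural markers rose, and without knock-down replicate 1 after tMCAO 2 of 7 did. The ependymal fall was kept only without knock-down replicate 1 after tMCAO, and 0 of 5 passed without either knock-down array before it. Of the erythroid genes 0 fell without either knock-down array after tMCAO or replicate 2 before it, and 1 fell without any one wild type or overexpression array. The summed linear level of the monocyte list, in units of each array's 75th percentile, ran from 9.15 to 9.48 before tMCAO and from 26.9 to 28.2 after it. That of the microglia list ran from 45.5 to 47.0 before and from 68.3 to 76.8 after. That of the 10 astrocyte genes ran from 59.4 to 61.0 before and from 67.4 to 79.8 after, and that of the neuronal list from 92.5 to 94.5 before and from 75.1 to 85.4 after. Among neuronal markers, Slc17a7, a vesicular glutamate transporter, fell by 1.23 on the log2 scale and the synaptic vesicle gene Syp by 0.68, out of 6 measured (limma adjusted p = 0.0089 and adjusted p = 0.0334), and the oligodendrocyte gene Mog rose by 0.99 ± 0.21 (adjusted p = 0.0297), out of 4. Without any one of the 4 knock-down arrays 0 of the oligodendrocyte genes passed, and 1 neuronal marker did, as it did without either wild type array. The part of these cell types in the differences of the astrocyte genes was not tested.

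**Figure D3:**
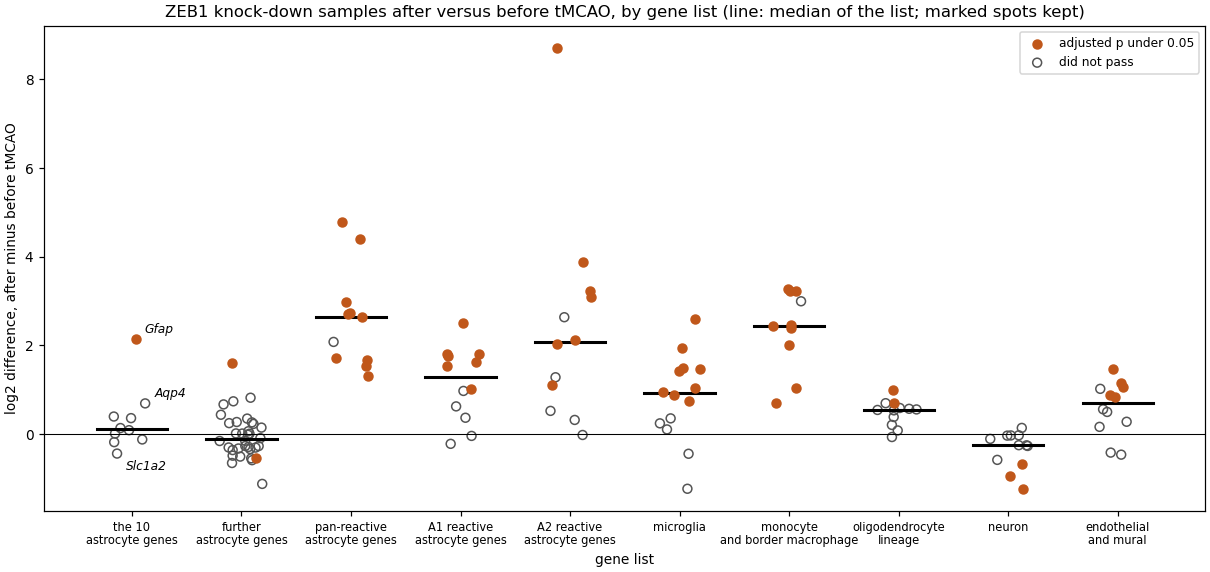
Log2 differences (vertical axis) between ZEB1 knock-down arrays after and before tMCAO for the genes of 10 lists (horizontal axis), all spots kept; filled points had limma adjusted p under 0.05, and lines are list medians. The 10 astrocyte genes and the 34 further ones centre at 0.11 and -0.12, with Gfap above the rest of the members, while the pan-reactive, A2 and monocyte lists centre at 2.63, 2.08 and 2.45.

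The 3 genotypes before tMCAO were compared next, to ask whether these genes differed with ZEB1 in the uninjured brain. No member passed in any of the 3 comparisons, where limma called 0% of all genes. The arrays labelled ZEB1 knock-down had the lowest mean of the 10 members, 2.24 and 2.27, against 2.40 and 2.50 in wild type and 2.44 and 2.57 in overexpression. All 10 members were lower in knock-down than in wild type, by 0.04 to 0.45 on the log2 scale, and all 8 measured members were higher in overexpression than in knock-down. These comparisons share arrays, so their directions are not independent.

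Gfap had the largest difference of the members measured in both comparisons with knock-down, while Glul had it for overexpression against wild type (0.28 ± 0.28, 1 array against 2, limma adjusted p = 0.735). From the levels given above, knock-down arrays lay below wild type by a log2 difference of -0.45 ± 0.19 (n = 2 against 2, limma adjusted p = 0.596), and overexpression lay 0.58 ± 0.19 above knock-down (adjusted p = 0.285) and 0.14 ± 0.19 above wild type (adjusted p = 0.808). The knock-down arrays did not overlap with either other group, whereas wild type and overexpression were next to each other without a difference beyond their spread. The order of the Gfap levels on this slide was therefore knock-down before tMCAO lowest, wild type and overexpression before tMCAO in the middle and knock-down after tMCAO highest. The second Gfap probe lay at -0.17 and -0.00 in wild type, 0.02 and 0.16 in overexpression and -0.77 and -0.89 in knock-down. Its differences were -0.74 ± 0.16 for knock-down against wild type (adjusted p = 0.506) and 0.92 ± 0.16 for overexpression against knock-down (adjusted p = 0.218), with all spots kept.

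The other members lay closer together. Sox9 lay at 1.34 and 1.55 in wild type, 1.28 and 1.44 in overexpression and 1.14 and 1.09 in knock-down, so knock-down was below both others, and its difference from wild type was -0.33 ± 0.17 (limma adjusted p = 0.706). S100b lay at 3.56 and 3.60 in wild type, 3.72 and 3.74 in overexpression and 3.40 and 3.29 in knock-down. Its 3 groups did not overlap, and knock-down differed from wild type by -0.23 ± 0.14 (adjusted p = 0.773) and overexpression from knock-down by 0.38 ± 0.14 with all spots kept (adjusted p = 0.336). Aldh1l1 lay at 2.83 and 2.80 in wild type, 2.63 and 2.79 in overexpression and 2.56 and 2.62 in knock-down. Its difference between knock-down and wild type was -0.23 ± 0.14 (adjusted p = 0.750). Glul lay at 3.22 and 3.46 in wild type, 3.49 and 3.62 in overexpression and 3.20 and 3.06 in knock-down, and Aldoc at 4.06 and 4.22 in wild type, at 4.21 and 4.38 in overexpression and at a mean of 3.99 ± 0.02 (SD, n = 2) in knock-down. On the brightest probe of both enzymes the knock-down arrays were below the others, with differences from wild type of -0.21 ± 0.23 (adjusted p = 0.892) and -0.16 ± 0.21 (adjusted p = 0.913). Other probes gave less. With all spots kept, Aldoc probe A_55_P2070992 averaged 3.76 in knock-down and 3.82 in wild type, and these groups overlapped. Glul probe A_52_P143866, at 2.01 and 2.15, overlapped too, while Glul probe A_55_P2142146 was lower in knock-down without overlap, at 3.22 and 3.34.

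The transporters and the endfoot genes overlapped more. Slc1a2 lay at 2.13 and 2.48 in wild type, 2.12 and 2.57 in overexpression and 2.20 and 2.32 in knock-down, where every pair of groups overlapped. Slc1a3 lay at 2.45 and 2.43, 2.32 and 2.54, and 2.30 and 2.30 in the same order, with a knock-down difference of -0.14 ± 0.14 (limma adjusted p = 0.875). Aqp4 lay at 1.14 and 1.32, 1.07 and 1.25, and 1.32 and 0.96, and Gja1 at 1.82 and 1.78, 1.85 and 1.90, and 1.80 and 1.66. The replicates of Aqp4 in knock-down differed by more than the means of any pair of these 3 groups. Its difference from wild type was -0.09 with a 95% interval from -0.62 to 0.45, and that of Gja1 was -0.07 with an interval from -0.47 to 0.33, so a larger change in either direction cannot be told from these arrays.

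Over the members, the median difference was -0.19 for knock-down against wild type, beside -0.07 over all genes, of which 38.4% were positive. It was 0.20 for overexpression against knock-down, beside 0.10, and 0.09 for overexpression against wild type, beside -0.01, with 6 of 8 members positive. Levels did not overlap and were lower in knock-down than in wild type for 7 of 10 members, against 30% of all genes, and higher in overexpression than in knock-down for 8 of 10, against 31.8%. In either direction 43.9% and 51.2% of all genes did not overlap, 19.4% being lower in overexpression than in knock-down. Between overexpression and wild type 3 of 10 members were higher without overlap and 1 was lower, against 22.8% and 24.5% of all genes, 47.2% in all. Scaling by the array medians took the knock-down median to 0.00 and turned 5 of the 10 members positive, Aqp4, Slc1a2, Slc1a3, Gja1 and Aldoc, so their direction depends on the scaling. After quantile normalization all 10 stayed negative. At an unadjusted p under 0.05, 0 of 10 members passed for knock-down against wild type, 1 of 8 for overexpression against knock-down and 0 of 8 for overexpression against wild type. Over all genes tested that count was 2652 of 30048, 3707 of 25152 and 2925 of 25149.

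Among further astrocyte genes before tMCAO, 0 passed with limma in each comparison, while 1 of 20, 7 of 20 and 1 of 33 had an unadjusted p under 0.05 for overexpression against wild type, overexpression against knock-down and knock-down against wild type. All 20 measured were positive for overexpression against wild type with a median of 0.24, beside -0.01 over all genes. All 20 were positive for overexpression against knock-down with a median of 0.46, beside 0.10. For knock-down against wild type 28 of 33 were negative with a median of -0.11, beside -0.07. Genes without an unmarked spot in a group are left out, these comparisons share arrays, and the share of all genes with each sign is not given here. The counts of signs are therefore not read as a result. The overexpression arrays lay in columns 1 and 2 with 18.2% and 23.7% of spots marked, and the other 2 groups in columns 3 and 4 with 1.03% to 3.28%, so the side of the slide cannot be told apart from overexpression. Wild type was in row 1 and both other genotypes in row 2. Of the pan-reactive genes, Lcn2 differed by 0.45 between overexpression and wild type (limma adjusted p = 0.733) and Cxcl10, an interferon-induced chemokine, by -1.16 (adjusted p = 0.547), and neither passed.

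The last comparison was of ZEB1 overexpression with wild type after tMCAO, on the 4-array slide. Wild type lay in row 1 with 21.7% and 16.9% of spots marked, and overexpression in row 2 with 18.0% and 7.49%. Row on the slide thus cannot be told apart from genotype here. No member passed, whether marked spots were left out (0 of 5 measured) or kept (0 of 10), while 2.94% of 19915 genes changed with limma in the first case and 3.2% of 27935 in the second. At an unadjusted p under 0.05, 1 of 5 and 1 of 10 members passed, Gja1 in each case. Counts at this unadjusted threshold are given here and below without the share of all genes, so they are not read as a result. The median member difference was 0.05, beside -0.12 over all genes. Of all genes 1.93% rose and 1.01% fell in the first case. With all spots kept the arrays of the groups did not overlap for 3 members with higher and 4 with lower levels in overexpression, against 21.6% and 33.8% of all genes, 55.4% in all.

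**Figure D4:**
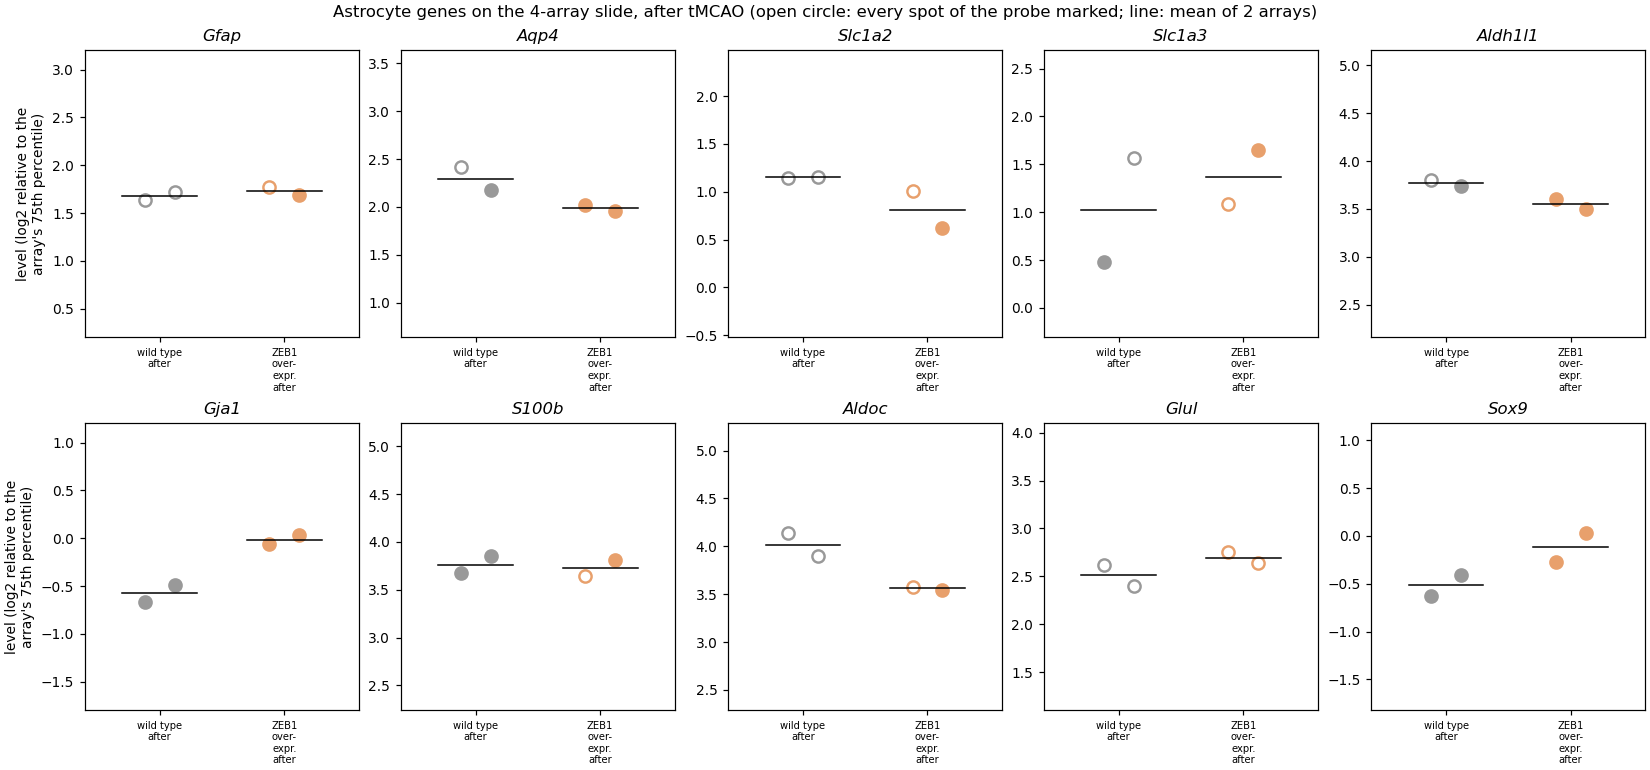
Levels of the 10 astrocyte genes on the 4-array slide after tMCAO, by array (vertical axis, log2 over the 75th percentile of its array) and group (horizontal axis); open circles are arrays on which every spot of the probe was marked, and lines are means of 2 arrays. On the brightest probe of each gene, Gja1 and Sox9 lie higher, and Aldoc, Aqp4, Slc1a2 and Aldh1l1 lower in overexpression, none past the threshold, and Gfap lies between 1.64 and 1.77 on all 4 arrays.

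Gja1, the gap junction gene, lay at -0.67 and -0.48 in wild type against -0.06 and 0.04 in overexpression, without overlap. Its log2 difference was 0.68 ± 0.25 (n = 2 against 2, limma adjusted p = 0.177), and 0.56 ± 0.23 with all spots kept (adjusted p = 0.206). Sox9 lay at -0.63 and -0.41 in wild type against -0.27 and 0.03 in overexpression, a difference of 0.47 ± 0.27 (adjusted p = 0.339). Aqp4 lay at 2.41 and 2.18 in wild type against 2.02 and 1.95 in overexpression, again without overlap but in the opposite direction (-0.19 ± 0.31, 2 arrays against 1, adjusted p = 0.748). A dimmer Aqp4 probe, also well above background on every array, averaged -0.54 in wild type and -0.56 in overexpression with all spots kept, and its groups overlapped. With marked spots left out it lay at -0.85 against -0.66, from 1 array each, so the 2 probes gave no common direction.

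Gfap was close to equal on this slide. Its brightest probe lay at 1.64 and 1.72 in wild type against 1.77 and 1.69 in overexpression, and the difference was 0.05 with a 95% interval from -0.48 to 0.58, all spots kept (limma adjusted p = 0.916). Both wild type spots were marked, so the fit without marked spots has no value. The second probe lay at 0.43 and 0.67 in wild type against 0.57 and 0.24 in overexpression (-0.15 ± 0.25, adjusted p = 0.760), and the dimmest probe gave -0.79 ± 0.23 (adjusted p = 0.106). None of the 3 Gfap probes passed, and they shared no direction.

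The metabolic and transport genes did not pass either. Aldoc lay at 4.13 and 3.90 in wild type against 3.58 and 3.55 in overexpression, lower without overlap, and Aldh1l1 at 3.81 and 3.73 against 3.61 and 3.50, also lower. Their differences with all spots kept were -0.46 ± 0.23 (limma adjusted p = 0.289) and -0.22 ± 0.22 (adjusted p = 0.598). Glul lay at 2.62 and 2.40 against 2.75 and 2.64 (0.18 ± 0.23, adjusted p = 0.671), and S100b at 3.67 and 3.85 against 3.64 and 3.81, which overlap (-0.03 ± 0.23, adjusted p = 0.950). Slc1a3 lay at 0.48 and 1.57 in wild type against 1.09 and 1.65 in overexpression. Its wild type replicates differed by more than the group means of any member's brightest probe on this slide, and its interval ran from -0.59 to 1.28.

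The 3 Slc1a2 probes went different ways. The brightest lay at 1.14 and 1.16 in wild type against 1.01 and 0.62 in overexpression (-0.34 ± 0.24, all spots kept, limma adjusted p = 0.448), and the second gave -0.38 ± 0.27 (adjusted p = 0.435). The dimmest, still above background, lay at -4.92 and -4.59 in wild type against -2.53 and -3.03 in overexpression, 1.98 ± 0.28 higher (adjusted p = 0.0185, every probe tested on its own). It was the only member probe that passed in this comparison, and since it opposes both brighter probes of the same gene no direction is given for Slc1a2.

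Of the further astrocyte genes 0 of 13 measured passed with limma after tMCAO, and 1 at an unadjusted p under 0.05, with a median of 0.14, and the largest was the lineage factor gene Nfia at 0.90 ± 0.26 (limma adjusted p = 0.108). Among reactive genes, Gbp2, an interferon-induced GTPase, rose by 3.04 ± 0.37 (1 array against 2, adjusted p = 0.0198) and by 2.90 ± 0.28 with all spots kept (2 against 2, adjusted p = 0.0077). It was the only one of 6 measured A1 genes to pass, and Serping1 was at -1.48 ± 0.31 (1 array against 2, adjusted p = 0.0699). Steap4, a metalloreductase, was the only one of 6 pan-reactive genes past the threshold with limma. It passed the filter on dim probes only through the overexpression arrays. It was well above background on 2 of 2 of them and on 0 of 2 wild type arrays. Its test was thus against signal at background, and no fold is given. Without either wild type replicate 0 pan-reactive and 0 A1 genes passed, and without overexpression replicate 2 0 of 3 measured A1 genes did. Without overexpression replicate 1, 1 A1 gene rose and 1 fell among 6, and 2 of 7 A2 genes rose. Of the A2 genes 8 had values and 0 passed, 2 of them at an unadjusted p under 0.05, B3gnt5 having the largest difference at 1.14 ± 0.39 (adjusted p = 0.150). The summed level of the endothelial and mural list was lower in overexpression, 16.8 to 17.9 against 27.7 to 29.4, and that of the oligodendrocyte list 31.6 to 32.1 against 41.3 to 43.0, that of the neuronal list 48.0 to 65.6 against 72.2 to 72.9, while the sums of the monocyte and border macrophage list, 44.1 to 44.6 against 31.5 to 34.9, and of the neutrophil list, 68.2 to 68.5 against 58.7 to 67.5, were higher. The neutrophil elastase gene Elane, the only measured neutrophil marker with marked spots left out, rose by 2.01 ± 0.37 (limma adjusted p = 0.0420) and did not pass without either wild type array. The 14 microglia markers summed to 162 to 179 against 183 to 201, and the 10 astrocyte genes to 56.7 to 57.1 against 62.4 to 63.8. The part of these in the member differences was not tested.

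Of the member probes, 8 were on both designs, which allows levels of the same probe to be set side by side without a test, since slide and group cannot be told apart. For Gfap the 4-array slide gave 1.64 to 1.77 after tMCAO, against 3.09 and 3.16 in knock-down after tMCAO and 1.40 and 1.46 in wild type before tMCAO on the 8-array slide. Other probes differed more between the slides. Gja1 lay between -0.67 and 0.04 on the 4-array slide and between 1.53 and 1.90 on the 8-array slide, whatever the group, and Aldh1l1 between 3.50 and 3.81 against 2.56 to 3.08. Glul lay between 2.40 and 2.75 against 3.14 to 3.49. The ranges of S100b, 3.64 to 3.85 against 3.29 to 3.74, and of the shared Aldoc probe, 3.55 to 4.13 against 3.50 to 3.90, overlapped between the slides. The offset thus differed from probe to probe, and no change of wild type or overexpression preparations over tMCAO is given.

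The members did not vary as a block. Over the 8 arrays of the 8-array slide, Gfap spanned 2.38 on the log2 scale, Aqp4 1.13 and Slc1a2 0.98, while Gja1 spanned 0.37 and S100b 0.45. As a description over 8 arrays that share a slide and differ in their share of marked spots, the Pearson correlation with Gfap was 0.82 for Aldh1l1, 0.78 for Aqp4 and 0.61 for S100b, and -0.76 for Gja1, -0.69 for Slc1a2 and -0.55 for Slc1a3. Aldoc, Glul and Sox9 were at 0.11, -0.08 and -0.27. With the mean of the other members the correlation was 0.85 for S100b, 0.80 for Aldh1l1, 0.70 for Aldoc and 0.51 for Glul. For the remaining members it ran from -0.24 (Gja1) to 0.36 (Sox9), so some members varied together and others did not. Of 15728 other genes above background on all 8 arrays, those most like the mean of the centred members were Rplp2 (0.99), Tmem134 (0.98), Gm15867 (0.98), Rpl28 (0.98) and Gm9828 (0.98), none of which was on the astrocyte lists.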

How the data were processed

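Probes were assigned to genes through the RefSeq gene table by unversioned accession, which named 48.1% of 55681 probes on the 4-array design and 59.6% of 56605 on the 8-array design. The scanner files hold linear, processed spot intensity written by Agilent Feature Extraction 11.5.1.1, per the file headers, while the submitters' processing notes name version 9.1. The same files hold yes or no marks (unit other) for spots above background, non-uniform or outlying, per the file headers. In the deposited value tables the numbers are log2 signals whose 75th percentile is 0 on each array (medians -3.77 to -3.05). They served as an alternative, and their scale and centring were found against the scanner files. The columns of knock-down replicates 1 and 2 after tMCAO matched each other's scanner file, with a correlation of 0.975 to their own. Both belong to 1 group, so group differences are unaffected. Replicate numbers given here follow the scanner files.

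The log2 of the processed signal minus the array's 75th percentile was averaged over spots of a probe. Probes had to exceed background on all arrays of 1 group or more, and the brightest stood for its gene (27935 and 30525 genes or accessions). Groups of a slide were fitted together with limma 3.58.1 in R 4.3.3 (two-sided, Benjamini-Hochberg, adjusted p under 0.05, no replicate block), with marked spots left out, which was tested on simulated data. Alternatives were normexp background correction (on median signals, offset 50), quantile and median scaling, other filters, blocks, moderation and single arrays left out. Same-numbered replicates did not deviate together (correlations from -0.19 to 0.26), so the numbers were not taken as pairs. The members and lists were chosen with earlier results of these data known. Genes of other lists were named from those past the threshold (at most 4 a list, largest first, or the 2 largest where none passed), together with 5 genes most like the members. The number of arrays limits the precision.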

Additional observations from a re-analysis of the deposited data

How the results depend on the processing

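The Gfap rise in knock-down after tMCAO kept its direction and its call under all 12 alternatives other than left-out arrays, and under every fit without 1 array that had a value. The number of members called there was 4 after normexp background correction, 2 with only probes above background on every array and 4 with trended, robust moderation, and ran from 0 to 1 over left-out arrays (1 throughout with all spots kept). Genes called there numbered 7409 after normexp, 2120 without a filter on dim probes and 2323 with only the 2 groups fitted, and 837 to 3969 without 1 array (769 to 4685 with all spots kept), with 1070 and 837 without knock-down replicates 1 and 2 before tMCAO and 2251 without replicate 1 after it. For overexpression against wild type after tMCAO they numbered 895 with all spots kept, 332 after normexp, 346 after quantile normalization, 0 without a filter, 1078 with every probe tested, 987 with trended, robust moderation and 1017 with all spots kept and a replicate block, and 37 to 1326 without 1 array (160 to 2104 with all spots kept), with 37 and 118 without wild type replicates 1 and 2 and 1326 and 997 without overexpression replicates 1 and 2. Before tMCAO, overexpression against wild type gave 6 after quantile and 1 after median scaling, knock-down against wild type 1 and 1, and overexpression against knock-down 6 and 17, with 0 to 2, 0 to 3 and 0 to 0 without 1 array (0 to 2, 0 to 6 and 0 to 2 with all spots kept).

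The member median for overexpression against wild type after tMCAO was 0.15 after normexp, 0.28 after quantile and 0.14 after median scaling, and 0.58 with the replicate block, where few members had values. It was 0.19 after normexp for overexpression against wild type before tMCAO, 0.00025 after median scaling for knock-down against wild type, 0.31 after normexp for overexpression against knock-down, and 0.25 after normexp and -0.16 after median scaling for knock-down after against before. Without 1 array these medians ran from 0.06 to 0.75 (-0.15 to 0.07 with all spots kept), -0.13 to 0.11 (-0.04 to 0.10), -0.23 to -0.12, 0.11 to 0.31 (0.14 to 0.32) and -0.15 to 0.36 (-0.12 to 0.36). The replicate block changed no other call of a member.

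Reversed signs were all of members that did not pass. After tMCAO, overexpression against wild type gave S100b -0.033 with all spots kept, -0.016 in the value tables and -0.033 with all spots kept and the block. Before tMCAO, overexpression against wild type gave Aqp4 -0.064, -0.049 and -0.064 in the same order and Slc1a3 0.0059 in the value tables. Median scaling turned knock-down against wild type to 0.10 for Aqp4, 0.14 for Slc1a2, 0.043 for Slc1a3, 0.12 for Gja1 and 0.029 for Aldoc, and overexpression against knock-down to -0.058 for Aqp4 and -0.0021 for Gja1. For knock-down after against before, Aldoc was at -0.11 after quantile and -0.13 after median scaling, Glul at -0.18 and Sox9 at -0.26 after median scaling, and Sox9 at -0.012 in the value tables. Without 1 array, ranges that crossed 0 in knock-down after against before were -0.14 to 0.34 for Aldoc, -0.20 to 0.37 for Glul, -0.16 to 0.18 for Sox9 and, with all spots kept, -0.25 to 0.0063 for Slc1a3 and -0.09 to 0.36 for Aldoc. In overexpression against wild type before they were -0.091 to 0.24 for Aldoc, -0.06 to 0.12 for Aqp4 and, with all spots kept, -0.15 to 0.03 for Aqp4, -0.18 to 0.26 for Slc1a2 (0.09 to 0.44 without marked spots), -0.12 to 0.11 for Slc1a3 and -0.19 to 0.015 for Sox9. In knock-down against wild type they were -0.27 to 0.10 for Aqp4 and -0.22 to 0.13 for Slc1a2, and in overexpression against knock-down -0.07 to 0.30 for Aqp4 and, with all spots kept, -0.16 to 0.21 for Aqp4 and -0.14 to 0.31 for Slc1a2. After tMCAO they were, with all spots kept, -0.12 to 0.055 for S100b and -0.20 to 0.89 for Slc1a3. The cause was not tested. Alternatives with all spots kept in single-array and block fits were chosen after the data were seen.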
